A study of Homo sapiens with 4 samples.

Results

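The genes described here encode the growth-controlling kinase complex mTORC1, the proteins that tell it whether amino acids are present, and the vacuolar proton pump (V-ATPase) on whose membrane these proteins meet. They were chosen by gene symbol: every row of the deposited table named for a V-ATPase subunit of the V0 or V1 sector, and 30 named genes of the mTORC1 pathway. This gave 49 genes of the 21372 in the table, 30 of the mTORC1 pathway and 19 of the V-ATPase. The samples were 2 libraries of RNA recovered with the protein P5CS (P5CS IP) and 2 libraries of input RNA, all from NCI-H1299 cells, an established line grown from a human lung cancer, for which the labels give no genetic change or treatment. RNA immunoprecipitation sequencing (RIP-seq) pulls a protein down with an antibody and sequences the RNA that comes with it. The protocol in the labels names RIP-seq, while the series' design text names LACE-seq, another way to map bound RNA, with anti-P5CS and anti-IgG, and the count columns carry the word Cyto, which no label explains. The RIP-seq and input labels were followed, and which RNA fraction was used is not known here. P5CS is the mitochondrial enzyme that ALDH18A1 encodes and that makes proline, and the study treated it as a protein that binds RNA. A mock or IgG precipitate was not analysed here, so "higher" below means higher in the precipitate than in the input only. The comparison was made after the scaling of library sizes given below, and is not one of shares of total counts. The labels do not say that replicates are separate cultures, and every p-value here rests on a spread between libraries that may be technical only.

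mTORC1 is a protein kinase that switches on protein synthesis and growth when nutrients and growth factors are both present. Amino acids act through the Rag GTPases, which are anchored to the lysosome by the Ragulator complex and bring mTORC1 to that membrane, while the TSC complex holds back RHEB, the small GTPase that activates the kinase there. The V-ATPase pumps protons into the lysosome and binds Ragulator, so that the pump is part of the sensing machinery as well as the source of lysosomal acidity.

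The module split in the P5CS IP: the mRNAs of MTOR, RPTOR, the folliculin complex and the 3 GATOR2 genes among the members (WDR24, WDR59 and MIOS) were higher, and those of Ragulator, RHEB and most tested V-ATPase subunits were lower. Of these higher genes, FNIP1 of the folliculin complex had no call once a trend over gene length was removed, as described below. Of the 49 genes, 46 passed the filter on low counts and were tested. In the fit over all genes, 16 of the 46 were higher and 19 were lower by edgeR's quasi-likelihood test, with an adjusted p under 0.05 (Benjamini-Hochberg), and 11 missed that threshold, where 25.4% of all 17304 genes tested were higher and 25.6% were lower. The median log2 fold change, P5CS IP over input, was -0.21 over the tested members and -0.01 over all genes tested. Among the members called, 6 were at least 2-fold higher and 14 at least 2-fold lower, against 2599 and 2464 of the 17304 genes tested. Among 30 mTORC1 pathway members 13 were higher and 9 lower, around a median of 0.20, and among 16 tested V-ATPase members 3 were higher and 10 lower, around a median of -0.92. Levels below are CPM, the usual depth-scaled count, over library sizes scaled by TMM, a method that assumes most genes not to change. Only 8472 of the 17304 genes tested had no call, so that assumption is in doubt here. The point from which higher and lower are counted depends on the scaling, and values with total counts alone are given below. Each pair of values gives the first library of a group and then the second, called P5CS IP 1 and 2 and input 1 and 2. Groups without overlap were common. Both P5CS IP libraries lay above both inputs for 6525 of the 17304 genes tested and below both for 6612. The same held for 18 and 23 of the 46 tested members.

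**Figure D1:**
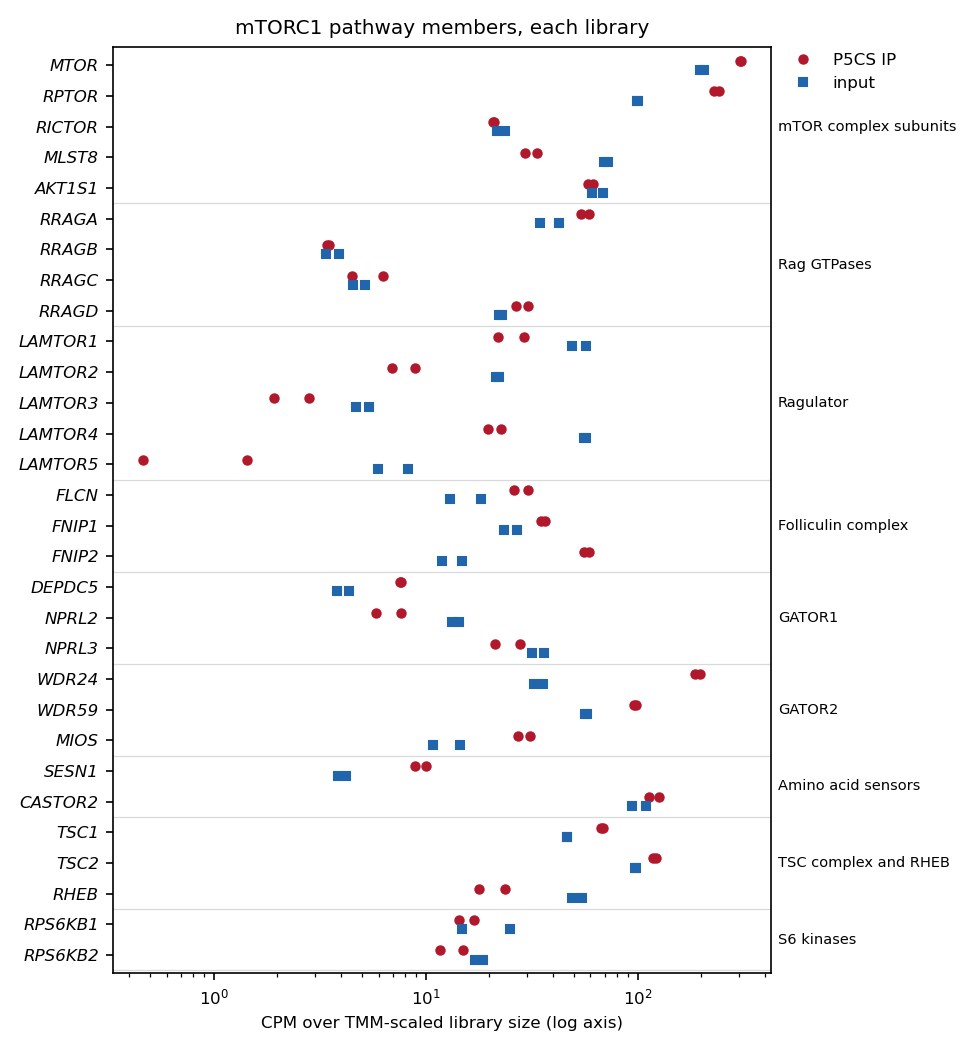
Level of the 30 mTORC1 pathway members in each library, in CPM over TMM-scaled library size on a log axis, with circles for the 2 P5CS IP libraries and squares for the 2 inputs. All 5 Ragulator genes have their P5CS IP libraries below their inputs, and the 3 GATOR2 members WDR24, WDR59 and MIOS have them above, with WDR24 at 187 and 198 CPM in the P5CS IP and 35.8 and 32.7 CPM in the input.

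The subunits of the mTOR complexes did not move together. MTOR, the kinase itself (chromosome 1, 11106535 to 11262551, GRCh38.p14, overlapped by ANGPTL7 and MTOR-AS1 in RefSeq), stood at 309 and 304 CPM in the P5CS IP and at 197 and 207 CPM in the input. Both IP libraries lay above both inputs, and MTOR was 1.52-fold higher (log2 fold change 0.60, SE 0.0765, adjusted p = 6.15e-05). RPTOR, the subunit that recruits mTORC1 substrates, stood at 230 and 242 CPM in the P5CS IP and at 99.2 and 101 CPM in the input, with little spread within either group. It was 2.36-fold higher (1.24, SE 0.0812, adjusted p = 4.27e-07). MLST8, the small beta-propeller protein that both mTOR complexes share, went the other way, with 33.5 and 29.5 CPM in the P5CS IP and 72.8 and 69.6 CPM in the input. Its log2 fold change was -1.17 (SE 0.11, adjusted p = 6.11e-06). RICTOR, the scaffold of mTORC2, had 21.0 and 20.8 CPM in the P5CS IP and 21.8 and 23.7 CPM in the input, and AKT1S1, the inhibitory subunit PRAS40, had 61.6 and 58.2 CPM in the P5CS IP and 68.4 and 61.2 CPM in the input. Neither passed (-0.13, adjusted p = 0.498, and -0.11, adjusted p = 0.387), and both signs turned with total-count scaling (0.14 and 0.15). The count ratio of RPTOR to MLST8 was 6.87 and 8.19 in the P5CS IP and 1.36 and 1.45 in the input. With RPTOR above and MLST8 below its inputs in both IP libraries, this ratio could not overlap between the groups and adds no evidence. The same holds for the ratios of DEPDC5 to NPRL2, TSC1 to RHEB and ATP6V1E2 to ATP6V1E1 given below. With 2 libraries a group an exact permutation test of such a ratio cannot go below p = 0.333, so these ratios carry no test.

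Every Ragulator mRNA was lower in the P5CS IP. Ragulator is the lysosomal anchor made of LAMTOR1 to LAMTOR5, in which LAMTOR1 carries the lipid tail that fixes the complex to the membrane. All 5 passed the test, with a median log2 fold change of -1.41. LAMTOR5 (chromosome 1, 110401253 to 110407924) was the lowest, at 1.44 and 0.466 CPM in the P5CS IP and 5.99 and 8.24 CPM in the input. These rest on 55 and 16 counts in the IP and on 225 and 345 in the input, and the fitted change was -2.88 (SE 0.47, adjusted p = 0.000383). The ratio between the 2 IP libraries was wider than that between the inputs, and the value was -3.92 without the first and -2.27 without the second P5CS IP library, below 0 and past the threshold in both. LAMTOR4 had 19.8 and 22.7 CPM in the P5CS IP and 56.1 and 57.0 CPM in the input (-1.41, SE 0.12, adjusted p = 2.95e-06). LAMTOR2 (-1.45, SE 0.184), LAMTOR1 (-1.05, SE 0.149) and LAMTOR3 (-1.08, SE 0.338) were lower as well, each with both IP libraries below both inputs. The call of LAMTOR3, the scarcest Ragulator gene per length in the input, ended with P5CS IP 2 left out (-0.80, adjusted p = 0.107), without the second input (-0.98, adjusted p = 0.0823) and with total-count scaling (-0.82), all by the same edgeR test.

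The Rag GTPases that sit on Ragulator did not share its shift. Rags work as pairs of RRAGA or RRAGB with RRAGC or RRAGD. RRAGA stood at 59.2 and 54.1 CPM in the P5CS IP and at 34.7 and 42.7 CPM in the input, without overlap, and was higher (0.55, SE 0.125, adjusted p = 0.00358). RRAGB was scarce, at 3.50 and 3.44 CPM in the P5CS IP and 3.40 and 3.89 CPM in the input, and did not pass (-0.07, SE 0.318). RRAGC had 6.30 and 4.51 CPM in the P5CS IP and 5.19 and 4.56 CPM in the input (0.15, SE 0.281), and its libraries overlapped. RRAGD had 26.8 and 30.5 CPM in the P5CS IP and 22.9 and 22.1 CPM in the input (0.35, SE 0.136), and its adjusted p of 0.052 lay just above the threshold. It passed with P5CS IP 1 left out (0.45, adjusted p = 0.0348), with total-count scaling (0.62), with RLE size factors (adjusted p = 0.0426), with a filter on CPM (adjusted p = 0.043) and with halved counts (adjusted p = 0.0436), all in edgeR, while without the second P5CS IP library or either input it did not.

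The folliculin complex was higher throughout. FLCN and its partners FNIP1 and FNIP2 form the GTPase-activating complex for RRAGC and RRAGD, which lets mTORC1 act on the lysosomal transcription factors TFEB and TFE3. FNIP2 (chromosome 4, 158769026 to 158908050) stood at 55.9 and 59.2 CPM in the P5CS IP and at 11.9 and 14.8 CPM in the input, a 4.31-fold difference (2.11, SE 0.139, adjusted p = 4.35e-07). Its paralogue FNIP1 had 36.8 and 35.1 CPM in the P5CS IP and 26.9 and 23.5 CPM in the input (0.51, SE 0.129, adjusted p = 0.00654). FNIP1 thus had the more counts of the pair in both inputs and FNIP2 in both IP libraries, with an FNIP2 to FNIP1 count ratio of 1.52 and 1.69 in the P5CS IP and 0.442 and 0.629 in the input. FLCN had 26.3 and 30.5 CPM in the P5CS IP and 13.0 and 18.3 CPM in the input (0.86, SE 0.181, adjusted p = 0.00223). FNIP1 lost its call when the second input was left out (0.42). It also had none with the trend over gene length removed, described below (0.22, edgeR adjusted p = 0.182).

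The largest increase among the tested members was that of WDR24, and the GATOR2 subunits were split, with the 3 members higher and 2 subunits outside the rule lower. GATOR2 is the complex that relieves inhibition by GATOR1, which is in turn the GTPase-activating complex that shuts off RRAGA and RRAGB when amino acids run out. WDR24 (chromosome 16, 684622 to 690398, with no overlapping coding or long non-coding gene in RefSeq), stood at 187 and 198 CPM in the P5CS IP and at 35.8 and 32.7 CPM in the input. The groups were far apart relative to their spread, a 5.63-fold difference (2.49, SE 0.0955, adjusted p = 1.15e-08). MIOS had 27.3 and 31.0 CPM in the P5CS IP and 10.9 and 14.5 CPM in the input (1.20, SE 0.174, adjusted p = 0.000164), and WDR59 had 96.7 and 98.1 CPM in the P5CS IP and 57.9 and 56.3 CPM in the input (0.77, SE 0.0911, adjusted p = 3.57e-05). WDR24 counts were 1.93 and 2.02 times those of WDR59 in the P5CS IP and 0.617 and 0.580 times in the input. SEC13 and SEH1L, GATOR2 subunits that also belong to the nuclear pore, went the other way. SEC13 had 37.4 and 25.6 CPM in the P5CS IP and 72.2 and 65.7 CPM in the input (-1.13, SE 0.159, adjusted p = 0.000132). SEH1L, named after its values were seen, had 23.4 and 29.2 CPM in the P5CS IP and 57.2 and 51.5 CPM in the input (-1.05, SE 0.134, adjusted p = 6.46e-05). Both had their IP libraries below their inputs.

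GATOR1 was divided. DEPDC5, its largest subunit, had 7.58 and 7.63 CPM in the P5CS IP and 4.34 and 3.82 CPM in the input and was higher (0.90, SE 0.249, adjusted p = 0.0109). NPRL2, its catalytic subunit, had 7.68 and 5.83 CPM in the P5CS IP and 13.3 and 14.4 CPM in the input and was lower (-1.04, SE 0.21, adjusted p = 0.00172). NPRL3 had 27.8 and 21.3 CPM in the P5CS IP and 31.9 and 36.2 CPM in the input (-0.47, SE 0.153, adjusted p = 0.0244). With the trend over gene length removed, described below, DEPDC5 stood at 0.52 without a call (edgeR adjusted p = 0.106), while NPRL2 and NPRL3 stayed lower. The DEPDC5 to NPRL2 count ratio was 0.986 and 1.31 in the P5CS IP, against 0.326 and 0.264 in the input. The NPRL3 call ended with P5CS IP 2 left out (-0.26, adjusted p = 0.212), without the second input (-0.38, adjusted p = 0.131) and with total-count scaling (-0.20), by the same edgeR test.

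The 2 amino acid sensors in the module were SESN1, a sestrin of the family that binds leucine and GATOR2, and CASTOR2, of the family that senses arginine. SESN1 had 8.94 and 10.1 CPM in the P5CS IP and 3.88 and 4.23 CPM in the input, without overlap, and was higher (1.23, SE 0.236, adjusted p = 0.00119). CASTOR2 stood at 114 and 127 CPM in the P5CS IP and at 109 and 93.9 CPM in the input and did not pass (0.24, SE 0.103, adjusted p = 0.0711). CASTOR2 passed with P5CS IP 1 left out (0.33, adjusted p = 0.0122), without the first input (0.36, adjusted p = 0.0407) and with total-count scaling (0.51), and was at 0.14 (adjusted p = 0.459) without the second input, by the same edgeR test.

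TSC1 and TSC2 were higher and RHEB was lower, but TBC1D7, the third subunit of the TSC complex and outside the rule, was lower like RHEB. TSC1, which stabilises the TSC complex, had 67.0 and 68.5 CPM in the P5CS IP and 46.5 and 46.3 CPM in the input (0.55, SE 0.0971, adjusted p = 0.000714). TSC2, the GTPase-activating subunit, had 123 and 118 CPM in the P5CS IP and 97.5 and 98.3 CPM in the input (0.30, SE 0.0851, adjusted p = 0.0125). RHEB, the target of that activity, stood at 17.8 and 23.7 CPM in the P5CS IP and 48.9 and 54.8 CPM in the input (-1.32, SE 0.15, adjusted p = 2.64e-05). With the trend over gene length removed, described below, TSC1 stood at 0.08 (adjusted p = 0.515) and TSC2 at 0.01 (adjusted p = 0.928), both without a call, and RHEB at -1.17. There were 3.76 and 2.89 TSC1 counts for each RHEB count in the IP and 0.950 and 0.845 in the input. TSC2 overlaps PKD1 in RefSeq, which was itself higher (2.60, SE 0.104, adjusted p = 1.44e-08), and since no source used here gives the strand setting of the counting, the TSC2 value is uncertain. The call of TSC2 ended without the first input (0.29, adjusted p = 0.0874) and without the second (0.31, adjusted p = 0.0735), by the same edgeR test.

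The S6 kinases, which phosphorylate ribosomal protein S6 downstream of mTORC1, did not pass. RPS6KB1 had 14.4 and 16.9 CPM in the P5CS IP and 24.9 and 14.8 CPM in the input (-0.34, SE 0.228, adjusted p = 0.237), so that the first input alone lay above the other libraries. Without that input the value was 0.07 (adjusted p = 0.829), and without the second input it was -0.67 and passed (adjusted p = 0.0106). RPS6KB2 had 15.03 and 11.7 CPM in the P5CS IP and 18.7 and 17.1 CPM in the input (-0.42, SE 0.179, adjusted p = 0.0714), and it passed with P5CS IP 1 left out (-0.62, adjusted p = 0.0243), all by the same edgeR test.

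Of the tested mRNAs of the V1 sector, the cytosolic part of the V-ATPase that hydrolyses ATP, most were lower in the P5CS IP. Of 12 V1 genes, 10 were tested: 6 lower, 1 higher and 3 without a call, around a median log2 fold change of -1.12. ATP6V1F (chromosome 7, 128862856 to 128865847), which encodes a small subunit of the central stalk, had 6.74 and 7.22 CPM in the P5CS IP and 30.8 and 29.6 CPM in the input, 4.32-fold lower in the IP (-2.11, SE 0.157, adjusted p = 1.08e-06). ATP6V1G1, of the peripheral stalk, had 9.36 and 10.5 CPM in the P5CS IP and 26.8 and 30.7 CPM in the input (-1.53, SE 0.16, adjusted p = 1.36e-05). The peripheral stalk gene ATP6V1C1 had 18.6 and 18.8 CPM in the P5CS IP and 47.2 and 49.4 CPM in the input (-1.37, SE 0.12, adjusted p = 3.5e-06), and the central stalk gene ATP6V1D had 12.8 and 11.8 CPM in the P5CS IP and 32.9 and 34.2 CPM in the input (-1.44, SE 0.142, adjusted p = 8.66e-06). None of these 4 overlapped between the groups, which also held for most genes tested.

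The subunits that form the catalytic ring of V1 moved less. ATP6V1B2 had 13.5 and 13.1 CPM in the P5CS IP and 22.2 and 26.3 CPM in the input (-0.86, SE 0.158, adjusted p = 0.000846). ATP6V1A, which carries the ATP-hydrolysing site, had 13.5 and 15.7 CPM in the P5CS IP and 17.7 and 24.4 CPM in the input (-0.53, SE 0.188, adjusted p = 0.036). Its call ended with P5CS IP 1 left out (-0.42, adjusted p = 0.117), without the second input (-0.28, adjusted p = 0.342) and with total-count scaling (-0.26), all by the same edgeR test, and with DESeq2 (-0.51, adjusted p = 0.0592). ATP6V1H, the regulatory subunit, had 33.7 and 40.4 CPM in the P5CS IP and 32.5 and 42.5 CPM in the input, with overlap of the groups (-0.02, SE 0.151, adjusted p = 0.936).

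The E subunit was represented by paralogues with different values. ATP6V1E2, whose protein is known as the testis form, was the only tested V1 gene that was higher, with 16.6 and 15.4 CPM in the P5CS IP and 7.21 and 4.87 CPM in the input (1.41, SE 0.224, adjusted p = 0.00032). The ubiquitous form ATP6V1E1 had 42.5 and 37.5 CPM in the P5CS IP and 44.6 and 53.7 CPM in the input (-0.30, SE 0.126, adjusted p = 0.0722). ATP6V1E2 counts were 0.390 and 0.412 of those of ATP6V1E1 in the IP and 0.162 and 0.0907 in the input. ATP6V1E2 overlaps RHOQ in RefSeq, which did not pass (-0.60, SE 0.25, adjusted p = 0.0665). ATP6V1E1 passed with P5CS IP 1 left out (-0.39, adjusted p = 0.0289) and without the first input (-0.42, adjusted p = 0.0306) and not without the second of either, by the same edgeR test.

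**Figure D2:**
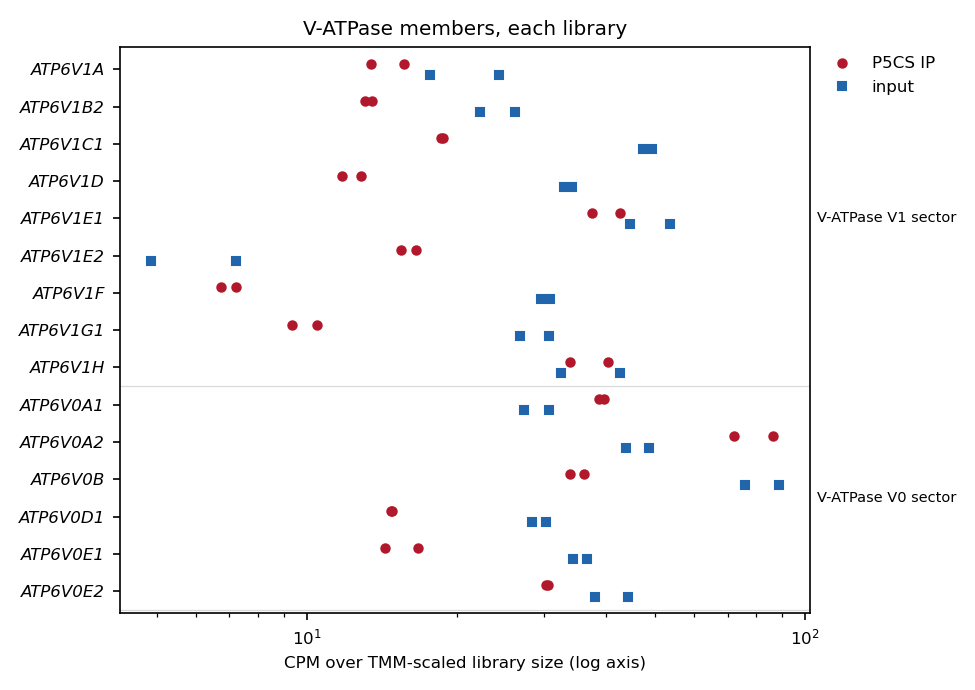
Level of the 15 V-ATPase members with counts in every library, in CPM over TMM-scaled library size on a log axis, with circles for the 2 P5CS IP libraries and squares for the 2 inputs. ATP6V1E2, ATP6V0A1 and ATP6V0A2 have their P5CS IP libraries above their inputs, ATP6V1H overlaps, and the other members have theirs below.

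In the V0 sector, the membrane part that carries protons across, the largest subunit was on the other side from the small ones. Of 7 V0 genes, 6 were tested: 4 lower and 2 higher, around a median of -0.71. The higher pair encodes forms of subunit a, which lines the proton path and directs the pump to its membrane. ATP6V0A2 had 72.1 and 86.2 CPM in the P5CS IP and 43.8 and 48.7 CPM in the input (0.77, SE 0.115, adjusted p = 0.000196), and ATP6V0A1 had 39.6 and 38.7 CPM in the P5CS IP and 27.3 and 30.7 CPM in the input (0.43, SE 0.121, adjusted p = 0.0115). ATP6V0B, a proteolipid of the rotating ring, was the lowest, with 36.1 and 33.8 CPM in the P5CS IP and 88.7 and 75.9 CPM in the input (-1.23, SE 0.112, adjusted p = 4.67e-06). ATP6V0E1 (-1.19, SE 0.141) and ATP6V0D1 (-0.99, SE 0.14) were lower by similar amounts, and ATP6V0E2 less so (-0.44, SE 0.124, adjusted p = 0.0125). The calls of ATP6V0A1 (0.35, adjusted p = 0.0943) and ATP6V0E2 (-0.32, adjusted p = 0.134) ended without the first input library, and that of ATP6V0E2 also with total-count scaling (-0.17), by the same edgeR test.

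The members with few counts gave no call. ATP6V0C, the gene of the main proteolipid of the ring, was listed with 2 and 0 counts in the P5CS IP and 9 and 4 in the input. Whether its reads were lost in the authors' counting could not be checked here, so these counts set no level for the gene. ATP6V1B1, the kidney form of subunit B, had 6 counts in each P5CS IP library and 0 in each input, where a floor of 3 counts corresponds to 0.0798 and 0.0716 CPM. ATP6V1G2 had 0 and 8 counts in the P5CS IP and 10 and 2 in the input, and these 3 genes fell under the filter. ATP6V1C2 passed the filter with 0 and 4 counts in the IP and 23 and 13 in the input and did not pass the test (adjusted p = 0.105). Its fitted value of -2.95 (SE 1.41) is the lowest of the module and depends on these few counts, since leaving out the second P5CS IP library gave -7.18 and leaving out the first gave -1.95.

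The promoters of V-ATPase and other lysosomal genes are known for a DNA element bound by TFEB, whose nuclear entry mTORC1 prevents. The RefSeq promoter table of GRCh38.p14 held a window for 37 of the 49 members. The core of that element, CACGTG, which reads the same on both strands, was searched in the 250 bases before each start of transcription. It was present for 10 of the 37 members, or 27.0%, against 7.73% of the 27305 genes with a window, tested here or not. Among genes tested here with a window, 1301 had the core and 10403 did not, against 10 and 24 of the tested members. The longer form TCACGTGA, which contains the core, was present for 4 of the 37, or 10.8%, against 1.04% of all. No window was held for ATP6V1A, ATP6V1B2, ATP6V1C1, ATP6V1E2, ATP6V1H and ATP6V0E1, nor for WDR24, MLST8, AKT1S1, RRAGA, RRAGD and CASTOR2. Of the 19 V-ATPase members, 13 thus had a window, and 4 of these had the core. All 4 were lower in the P5CS IP, as were the Ragulator genes LAMTOR1 and LAMTOR4, while TSC2 and FNIP1 were higher. RRAGB and RRAGC did not pass. A match describes these letters only. The stretches of 60 bases that hold the first match are shown for the 6 lower members. They were picked by their call, so the direction they share follows from the choice and links it to the element in no way. The stretches of TSC2, FNIP1, RRAGB and RRAGC are not shown, although the windows of TSC2 and RRAGB hold the longer form. Each stretch is read 5′ to 3′ on the strand of the gene with the core in capitals.
ATP6V0B, chr1:43974876-43974935, plus strand: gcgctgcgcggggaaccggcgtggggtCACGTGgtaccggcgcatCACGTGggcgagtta
ATP6V0D1, chr16:67481184-67481243, minus strand: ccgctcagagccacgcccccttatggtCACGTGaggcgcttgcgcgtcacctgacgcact
ATP6V0E2, chr7:149872869-149872928, plus strand: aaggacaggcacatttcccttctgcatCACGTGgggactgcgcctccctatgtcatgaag
ATP6V1G1, chr9:114587684-114587743, plus strand: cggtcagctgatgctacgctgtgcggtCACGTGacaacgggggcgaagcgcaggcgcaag
LAMTOR1, chr11:72103430-72103489, minus strand: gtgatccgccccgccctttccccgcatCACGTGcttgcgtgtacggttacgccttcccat
LAMTOR4, chr7:100148858-100148917, plus strand: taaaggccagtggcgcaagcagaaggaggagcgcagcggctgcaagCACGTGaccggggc
In ATP6V0B the stretch held 2 cores, and in ATP6V0D1, ATP6V0B and ATP6V1G1 the first core ended 53, 51 and 52 bases before the start of transcription. In LAMTOR4 it ended 8 bases before it and in LAMTOR1 159 bases before it. Of 24 tested members whose windows held no core, 8 were lower and 11 higher, against 6 lower and 2 higher of the 10 with it. Over all genes tested with a window, 29.7% of 1301 with the core and 28.7% of 10403 without it were lower, and 28.4% and 27.4% were higher.

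The split ran along gene model length, a property that moved with the fold change over all genes as well. The gene models behind the deposited values ran from 658 nt for LAMTOR2 to 10289 nt for TSC1. Across the 46 tested members, which share the same 4 libraries, the log2 fold change and the log2 length had a Pearson correlation of 0.59 and a Spearman correlation of 0.62, and across all 17304 genes tested these were 0.24 and 0.27. Of 12 tested members under 2000 nt, 9 were lower and 1 was higher, where 35.0% of all genes of that length were lower and 10.2% were higher. Of 17 members of 5000 nt or more, 11 were higher and 2 lower, where 40.0% of all genes of that length were higher and 17.1% were lower. The trend over all genes stood at -0.59 for 1000 nt, -0.27 for 2000 nt, 0.09 for 4000 nt and 0.36 for 8000 nt.

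**Figure D3:**
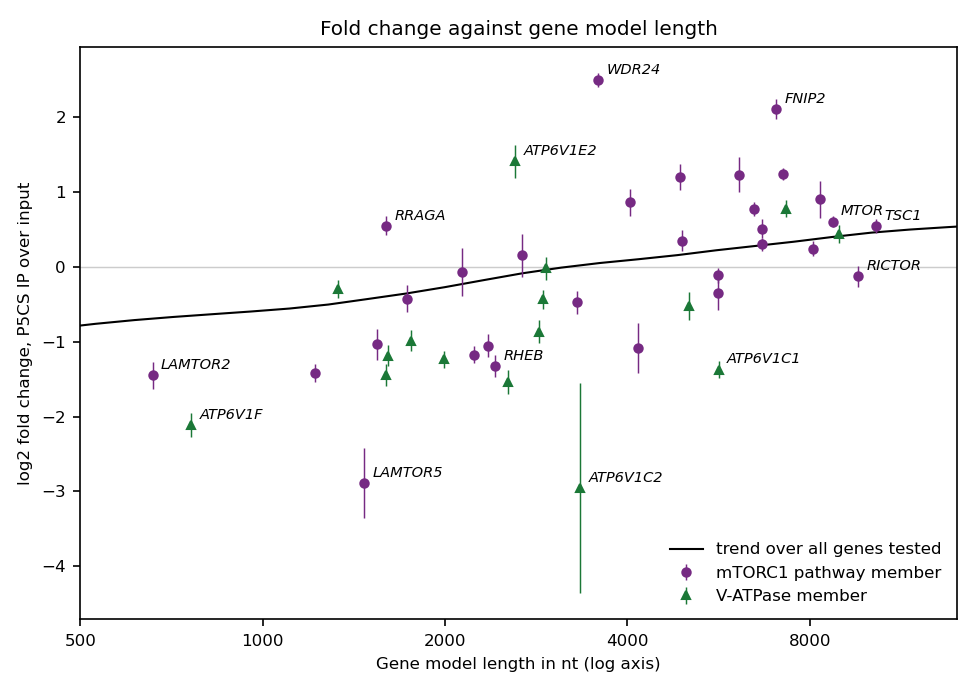
Log2 fold change of P5CS IP over input for the 46 tested members against gene model length in nt on a log axis, with bars of 1 SE, circles for mTORC1 pathway members and triangles for V-ATPase members. The line is the trend over all genes tested, above which WDR24 and FNIP2 stand highest and below which ATP6V1C2 and LAMTOR5 stand lowest.

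With that length trend removed from every gene, 11 of the 46 members were higher and 21 were lower, where 23.8% of all genes were higher and 25.3% were lower in the same fit. The calls of 30 members stood in both fits. All 5 Ragulator genes stayed lower, with a median of -0.89 and LAMTOR5 at -2.45, and RHEB stood at -1.17. The V-ATPase members stayed at 10 lower, with a median of -0.75 and ATP6V1C1 at -1.60. WDR24 (2.44), FNIP2 (1.80), MIOS (1.04), RPTOR (0.92) and ATP6V1E2 (1.51) remained higher, and RRAGA, a short gene model of 1599 nt, stood at 0.94. The calls of FNIP1 (0.22), DEPDC5 (0.52), TSC1 (0.08), TSC2 (0.01) and ATP6V0A1 (0.02) ended, and MTOR was at 0.20 (adjusted p = 0.0466). RICTOR (-0.56, adjusted p = 0.00655) and AKT1S1 (-0.34, adjusted p = 0.018) passed as lower here and not without the correction.

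**Figure D4:**
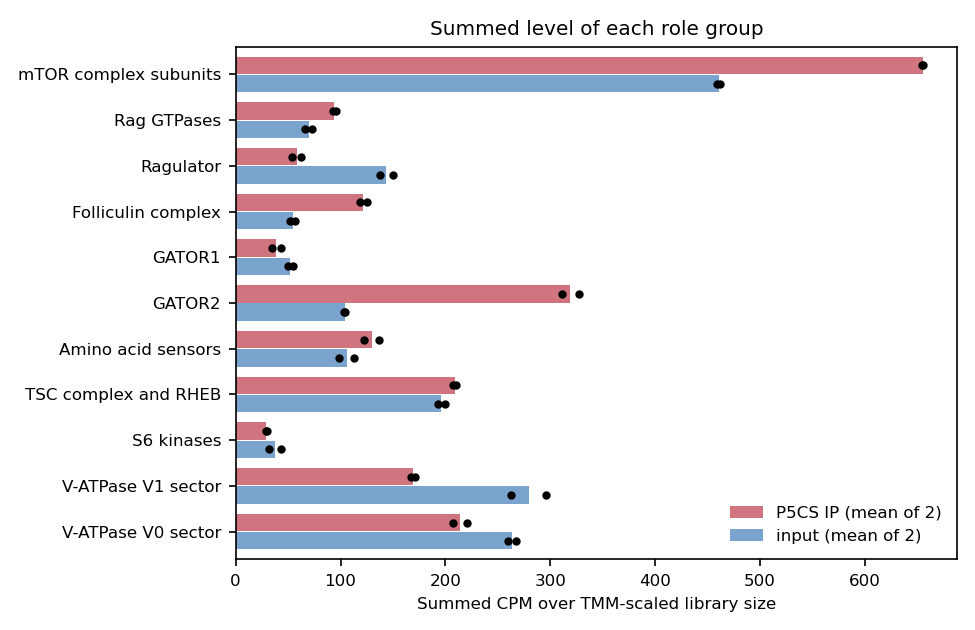
Summed CPM over TMM-scaled library size of the members of each role group, with bars for the mean of 2 libraries, P5CS IP above input, and dots for the single libraries. The GATOR2 members and the folliculin complex are higher in the P5CS IP and Ragulator and the V1 sector are lower. The single libraries of P5CS IP and input do not overlap in any role group. Of the 17304 single genes tested, 6525 lay above and 6612 below their inputs without overlap as well. A sum follows its most abundant genes, and some groups, such as GATOR1 and the TSC complex with RHEB, hold members called in opposite directions.

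The members of each complex were also summed. The 3 GATOR2 members summed to 319 ± 11.3 CPM in the P5CS IP and 104 ± 0.762 CPM in the input libraries (SD over n = 2 in each group), and the folliculin complex to 122 ± 4.12 CPM in the P5CS IP and 54.2 ± 3.36 CPM in the input. With SEC13 and SEH1L the GATOR2 sum was 377 ± 7.10 CPM in the P5CS IP and 227 ± 9.41 CPM in the input, a ratio of 1.66 in place of 3.07, an addition chosen after seeing the data. Ragulator summed to 58.1 ± 5.73 CPM in the P5CS IP and 144 ± 8.63 CPM in the input, and the V1 sector to 169 ± 2.34 CPM in the P5CS IP and 279 ± 23.4 CPM in the input. TSC1, TSC2 and RHEB summed to 209 ± 2.03 CPM in the P5CS IP and 196 ± 4.57 CPM in the input. All members together took 0.223 and 0.224% of the P5CS IP counts and 0.161 and 0.161% of the input counts, before TMM scaling.

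Per length, several of the genes that were lower were among the most abundant of the module in the input. In the deposited FPKM, which divide counts by gene length and library total, LAMTOR4 led the inputs with 42.3 ± 0.0356 FPKM (SD, n = 2), followed by ATP6V0B with 37.7 ± 4.57, ATP6V1F with 36.1 ± 1.47 and ATP6V1E1 with 33.6 ± 3.99 FPKM. The next were LAMTOR2 with 30.1 ± 0.33 and MLST8 with 29.1 ± 1.27 FPKM, and the neighbours ATP6V0B, ATP6V1F and ATP6V1E1 did not differ beyond their spread. In the P5CS IP libraries the highest FPKM of the module was that of WDR24, at 57.6 and 60.4 FPKM, against 9.19 and 8.26 FPKM in the inputs, where it ranked 23 of 49. RRAGA, with 40.8 and 36.8 FPKM in the P5CS IP, and MTOR, with 39.0 and 38.1 FPKM, came next and overlapped. SESN1 and DEPDC5 were scarce in the inputs, at 0.605 ± 0.0291 and 0.448 ± 0.0452 FPKM.

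Other genes of the same pathway, from 2 lists of 38 and 14 genes outside the rule, were mixed. Of 35 tested mTORC1 pathway genes 10 were higher, 6 lower and 19 without a call, around a median log2 fold change of 0.08, near the -0.01 of all genes tested. The shares of all genes tested, to be set beside the counts of both lists, were 25.4% higher and 25.6% lower. Among the highest called were ULK1, the autophagy kinase that mTORC1 inhibits (1.24, SE 0.109, adjusted p = 3.7e-06), and TTI1, which helps assemble mTOR complexes (0.71, SE 0.118, adjusted p = 0.000477). The lowest were TBC1D7, the third TSC complex subunit (-1.17, SE 0.224, adjusted p = 0.00117), SEC13, described with GATOR2 above, and the amino acid transporter gene SLC36A4 (-1.11, SE 0.19, adjusted p = 0.000546).

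Of 14 V-ATPase accessory and assembly genes, 6 were higher, 5 lower and 3 without a call, around a median of 0.03. The highest were DMXL1, of the rabconnectin group that assembles V1 onto V0 (1.17, SE 0.115, adjusted p = 8.8e-06), NCOA7 (1.07, SE 0.104, adjusted p = 8.27e-06) and OXR1 (0.61, SE 0.133, adjusted p = 0.00267), both of the family that binds V1. The lowest were VMA21, TMEM199 and CCDC115, which help build V0 in the endoplasmic reticulum, at -1.62 (SE 0.139, adjusted p = 3.2e-06), -1.44 (SE 0.487, adjusted p = 0.0293) and -1.36 (SE 0.195, adjusted p = 0.000147). The TMEM199 call ended with P5CS IP 2 left out (-1.15, adjusted p = 0.106), without the first input (-1.10, adjusted p = 0.191) and with total-count scaling (-1.18), by the same edgeR test. Over both lists 16 genes were higher and 11 lower with TMM scaling, and 22 were higher and 9 lower with total counts alone. The median log2 fold change over all genes tested was -0.01 with TMM scaling and 0.25 with total counts alone.

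The authors' deposited table marks 11 of the 49 members as enriched, where it marks 19.0% of all genes. The authors' deposited table gives the mark to MTOR, RPTOR, FLCN, FNIP2, DEPDC5, WDR24, WDR59, MIOS, SESN1, ATP6V1E2 and ATP6V0A2, with WDR24 at a log2 fold change of 2.51 and MTOR at 0.62. The mark falls on genes with an unadjusted p under 0.05 and a fold above 1.5 in the authors' deposited table, and all 11 were called higher here as well. The other 5 members called higher here, RRAGA, FNIP1, TSC1, TSC2 and ATP6V0A1, had folds under that limit in the authors' deposited table.

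Total counts ran from 31489455 to 34730866 in the P5CS IP libraries and from 40911717 to 46339235 in the inputs. Scaling by total counts alone put the median over all tested genes at 0.25 in place of -0.01 (log2), and the members were then 18 higher and 15 lower. The labelled cell type was checked against 22 marker genes. Of 6 epithelial keratin and adhesion markers, KRT8 and KRT18, keratins of simple epithelia, were abundant in all libraries. The others were scarce or absent, in CPM of total counts. KRT7 had 0.288 and 0.667 CPM in the P5CS IP and 1.08 and 0.971 CPM in the input. KRT19 had 2.02 and 2.60 CPM in the P5CS IP and 0.733 and 1.08 CPM in the input. EPCAM had 0 and 0 CPM in the P5CS IP and 0.196 and 0.129 CPM in the input, and CDH1 had no row. Of 6 lung epithelial markers 1 had a row, NKX2-1, at 0.576 and 1.65 CPM in the P5CS IP and 0.196 and 0 CPM in the input. Of 6 blood cell markers 4 had a row, which summed to 1.32 and 1.27 CPM in the P5CS IP and 0.489 and 0.561 CPM in the input. The 4 endothelial markers summed to 5.47 and 5.02 CPM in the P5CS IP and 1.61 and 1.38 CPM in the input, and their part in the results above was not tested.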

How the data were processed

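The data were gene values of 2 P5CS IP and 2 input libraries of NCI-H1299 cells. Reads were handled with STAR 2.7.10a, fastp 0.23.2, DESeq2 and featureCounts on hg38, per the submitters' processing notes, while the sources used here give no settings, annotation or strand. The authors deposited whole-number counts per gene and FPKM, whose quotient gave gene model lengths, equal across libraries to within 0.000136 of their median. Per the file headers, the authors' own comparison adds a mean normalised count (a signal), a log2 fold change, its standard error and a test statistic (each a score) and p-values. Columns were matched to samples by replicate number and by the presence or absence of the word input. Of 21373 rows, 1 repeated a symbol and its values and was dropped.

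Tests used edgeR 4.0.16 in R 4.3.3 (filterByExpr, TMM, glmQLFit, glmQLFTest, no replicate term, 2 residual degrees of freedom) over 17304 genes, with Benjamini-Hochberg adjustment over all. The SE is the log2 fold change over the square root of F. Of counts from 1 to 30, 85.76 to 86.4% were even in each library, so pairs may have been counted by mate, and halved counts were an alternative, as was DESeq2 1.42.0. The length trend was a lowess curve (span 0.3) of log2 fold change over log2 length, entered as an offset. Between replicates the counts differed beyond sampling noise (chi-square over degrees of freedom 20.2 for the IP and 19.2 for the inputs). Floors of 3 counts cover counting error only. All 49 members matched RefSeq GRCh38.p14 by gene ID. The fits were tested on simulated data. Members and lists were chosen with earlier results of these data known. All members are named, as are the 3 highest and 3 lowest called genes of each list of other pathway genes, apart from 1 that is not reported here.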

Additional observations from a re-analysis of the deposited data

How the results depend on the processing

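Across 14 alternatives, 25 of the 35 called members kept their call and direction, and none of the 35 changed sign. With libraries left out, 14 to 18 members were higher and 17 to 20 lower, and 12 to 16 other pathway genes were higher and 10 to 14 lower. Where a library was left out, 1 group held a single library, which was assumed to vary like the other group. Under the rule of an unadjusted p under 0.05 with a fold above 1.5, the other pathway genes higher in the P5CS IP numbered 9 instead of 16. Members that did not pass turned in sign as follows, and the cause was not tested. With total counts alone RICTOR stood at 0.14, AKT1S1 at 0.15, RRAGB at 0.19 and ATP6V1H at 0.25, and ATP6V1H was at 0.000552 with DESeq2. With the length trend removed, an alternative chosen after seeing the data, RRAGB stood at 0.16, CASTOR2 at -0.12, ATP6V1E1 at 0.19 and ATP6V1H at 0.0193, and with the replicate block and the trend removed at 0.16, -0.12, 0.19 and 0.0273. With libraries left out, RRAGB ran from -0.17 to 0.0283, RRAGC from -0.11 to 0.40, RPS6KB1 from -0.67 to 0.074 and ATP6V1H from -0.20 to 0.19. The replicate numbers are only labels: the replicate differences of IP and input correlated at 0.0154 over genes. With the replicate number as a block alone, 17 members were higher and 19 lower, and 16 and 12 other pathway genes. CASTOR2 passed under that block (0.25, adjusted p = 0.0438, edgeR). With block and trend removal these were 11, 22, 13 and 13. At 0 to 23 counts a library, ATP6V1C2, ATP6V1B1, ATP6V1G2 and ATP6V0C had too few deposited counts for a call.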

Other observations

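Several members share their locus with another transcript in RefSeq, 19 of the 49 with a coding or long non-coding gene, and these partners had values of their own. ATP6V0E2-AS1, which overlaps ATP6V0E2 from the opposite strand, had 368 and 248 counts in the P5CS IP and 99 and 72 in the input and was higher (log2 fold change 1.95 with an SE of 0.312, edgeR adjusted p = 0.000334), while ATP6V0E2 was lower. PKD1, which overlaps TSC2, had 26497 and 29219 counts in the P5CS IP and 4924 and 5158 in the input. GPHN, the gephyrin gene that overlaps ATP6V1D, was lower (-0.74, SE 0.169, adjusted p = 0.00354, same edgeR test), as was MPG beside NPRL3 (-0.63, SE 0.151, adjusted p = 0.00501). OSMR beside RICTOR was higher (0.37, SE 0.0927, adjusted p = 0.00601, same edgeR test), and RCC1L beside CASTOR2 was higher as well (0.30, SE 0.0915, adjusted p = 0.0191). PDIA6, which overlaps the scarce ATP6V1C2, was also higher (0.37, SE 0.0778, adjusted p = 0.00227, same edgeR test). RPTOR, FNIP2 (SPMIP2), LAMTOR5 (LAMTOR5-AS1) and LAMTOR1 (LRTOMT) are also among the 19, and values of their partners are not given here. With no strand setting stated for the counting, reads of opposite transcripts cannot be told apart.

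The ATP6V1E1 pseudogene ATP6V1E1P1 had 28 and 26 counts in the P5CS IP and 14 and 10 in the input and did not pass (1.28, SE 0.86, adjusted p = 0.246, same edgeR test).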
